A study of Sus scrofa with 12 samples.

Results

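Collagens are the genes described here, taken as every gene whose platform symbol is COL, a number, A and a number. The array held 30 such genes in 34 probe sets, among 12362 named genes and 27558 probe sets in all. Each gene is represented by its probe set with the highest mean. Of the 44 collagen genes in the classes used below, the other 14 were not analysed here.

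RNA was measured on 12 Affymetrix arrays of left ventricular muscle from female pigs 13 months old. Paced (EXP) pigs had complete atrioventricular (AV) block, made with an ablation catheter, and a pacemaker set to VDD, a mode that follows atrial beats and stimulates the ventricle. Sham (CTL) pigs were of the same age, and the labels give AV block for the pacing group only. By these labels, every paced minus sham difference is one of AV block and pacing together, which cannot be told apart here. Pacing below stands for both. The labels place the ventricular lead on the right ventricular septum and the atrial lead in the right atrial appendage, and say so of all pigs. Tissue was taken 6 months after surgery from the left ventricular free wall (FW) and the left ventricular septum (S). This gave 4 groups of 3 arrays: free wall paced, free wall sham, septum paced and septum sham. The study enrolled 12 pigs, 6 per treatment, and nothing in the labels ties an array to an animal. The p-values therefore measure the spread between these arrays.

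Collagens are proteins of 3 chains wound into a triple helix, and each COL gene encodes 1 chain. Fibrillar collagens, above all types I and III made by fibroblasts, carry tension between the muscle cells of the heart. Network-forming type IV lines the basement membranes of myocytes and capillaries, and FACIT collagens sit on the surface of fibrils. More type I and III collagen is the textbook hallmark of cardiac fibrosis.

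Values are RMA signals on the log2 scale, where a difference of 1 is a doubling. Signals of different probe sets are not compared as amounts, since probes differ in brightness. A signal in whole tissue cannot tell fewer cells of a type apart from less RNA per cell. Muscle of the ventricle was present on every array: MYH7, the slow myosin heavy chain, lay between 12.4 and 12.59. Array medians lay between 4.305 and 4.45. Free wall paced array 2 stood apart, at 45.27 on the first principal component, against -22.28 to 19.23 for the other arrays. Both sham arrays numbered 1 stood apart on the second, at 27.2 and 24.27, against -16.33 to 7.76. Differences are also given without those sham arrays, which were chosen because COL3A1 was known to be low in them. That choice was made on a collagen gene, so the differences without these arrays are not independent of it. Free wall paced array 2, given its place on the first component, is left out where it matters.

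By mean signal over 12 arrays, 15 collagen genes were above the median of every array and 12 more were dimmer but bright enough to test. The remaining 3, COL4A3, COL6A5 and COL9A1, belonged to the dimmest 25% of probe sets and were not tested. All 10 fibrillar genes on the array were tested, with means from 3.90 for COL11A1 to 7.35 for COL3A1. Of the type IV genes 4 of 5 were tested, of the type VI genes 1 of 2 and of the FACIT genes 5 of 6. All 3 short-chain genes were tested, as were the multiplexin COL15A1, the 2 membrane collagens COL17A1 and COL23A1, and COL7A1, the chain of anchoring fibrils. The map of all 30 genes shows which arrays set their variation. The sham arrays numbered 1 were low in a set of bright genes, and free wall paced array 2 was high in many genes. That paced array was the highest of the 12 in 13 of 27 tested collagen genes, while it was the highest in 19.0% of all tested probe sets. That share depended on brightness. It was the highest in 7 of the 15 collagen genes above every array median, against 12.5% of all such tested probe sets. Among the 12 dimmer tested collagen genes it was the highest in 6, against 30.6% of all dimmer tested probe sets. Septum sham array 2 was the highest in 6 of 27, against 3.95% of all.

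**Figure D1:**
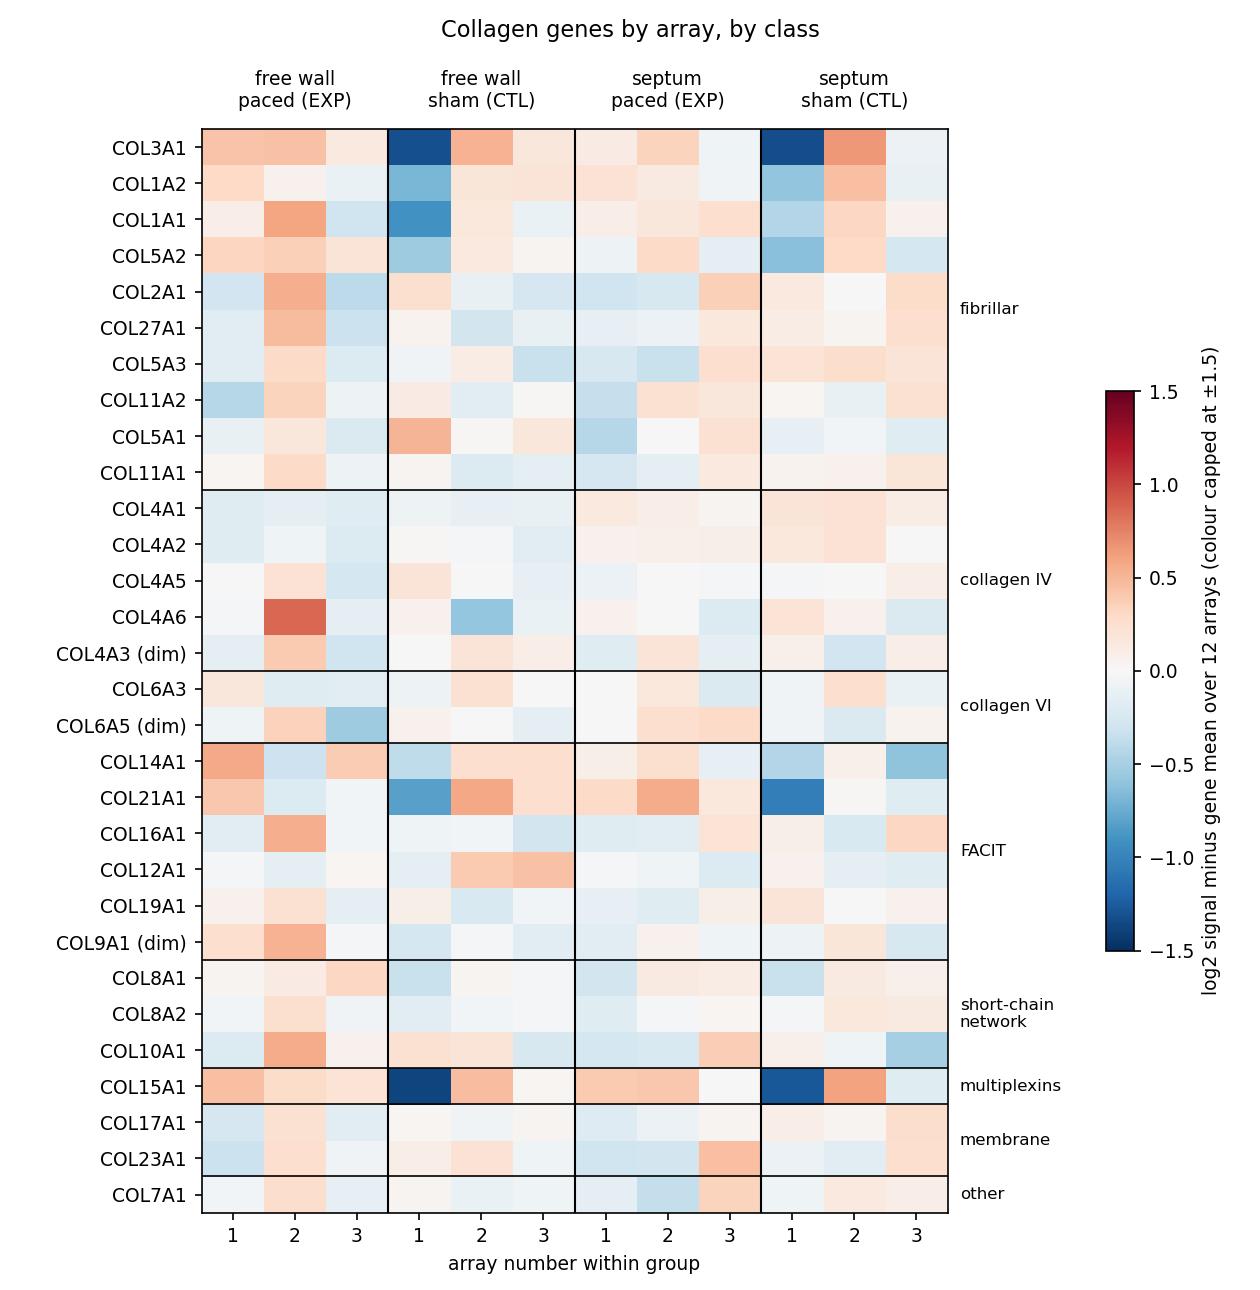
Each row is a collagen gene and each column an array, with colour for the log2 signal minus the gene's mean over 12 arrays, and rows grouped by class. COL3A1 and COL15A1 are darkest blue in both sham arrays numbered 1, and 13 of 27 tested genes are highest in free wall paced array 2.

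COL3A1 encodes the single chain of type III collagen. It read 7.78, 7.79 and 7.5 in paced free wall, against 6.03, 7.87 and 7.52 in sham free wall. In septum it read 7.47, 7.68 and 7.28 in paced pigs, against 6.02, 8.0 and 7.26 in sham pigs. The low value in each region was sham array 1. The other 4 sham arrays lay between 7.26 and 8.0, and the 6 paced arrays between 7.28 and 7.79.

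COL1A1 and COL1A2 encode the 2 different chains of type I collagen, the main fibril of scar. COL1A1 read 7.04, 7.54 and 6.64 in paced free wall, against 6.04, 7.10 and 6.84 in sham free wall. It read 7.04, 7.11 and 7.20 in paced septum, against 6.51, 7.26 and 7.01 in sham septum. Sham array 1 was again the lowest in each region. COL1A2 read 7.38, 7.15 and 6.98 in paced free wall, against 6.40, 7.27 and 7.28 in sham free wall. In septum it read 7.30, 7.22 and 7.03 in paced pigs, against 6.49, 7.54 and 6.97 in sham pigs. Both chains thus had the same low arrays.

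COL5A2, a chain of type V collagen, which starts and limits type I fibrils, neighbours COL3A1 on chromosome 15 in the RefSeq annotation of Sscrofa11.1. It read 5.72, 5.75 and 5.59 in paced free wall, against 4.87, 5.54 and 5.44 in sham free wall, so these groups did not overlap. In septum it read 5.32, 5.69 and 5.25 in paced pigs, against 4.77, 5.70 and 5.14 in sham pigs, and the groups overlapped. COL15A1, a basement membrane proteoglycan collagen, read 9.28, 9.10 and 9.03 in paced free wall, against 7.45, 9.29 and 8.86 in sham free wall. It read 9.22, 9.23 and 8.83 in paced septum, against 7.56, 9.43 and 8.64 in sham septum. Both sham arrays numbered 1 lay far below the rest, as for COL3A1.

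**Figure D2:**
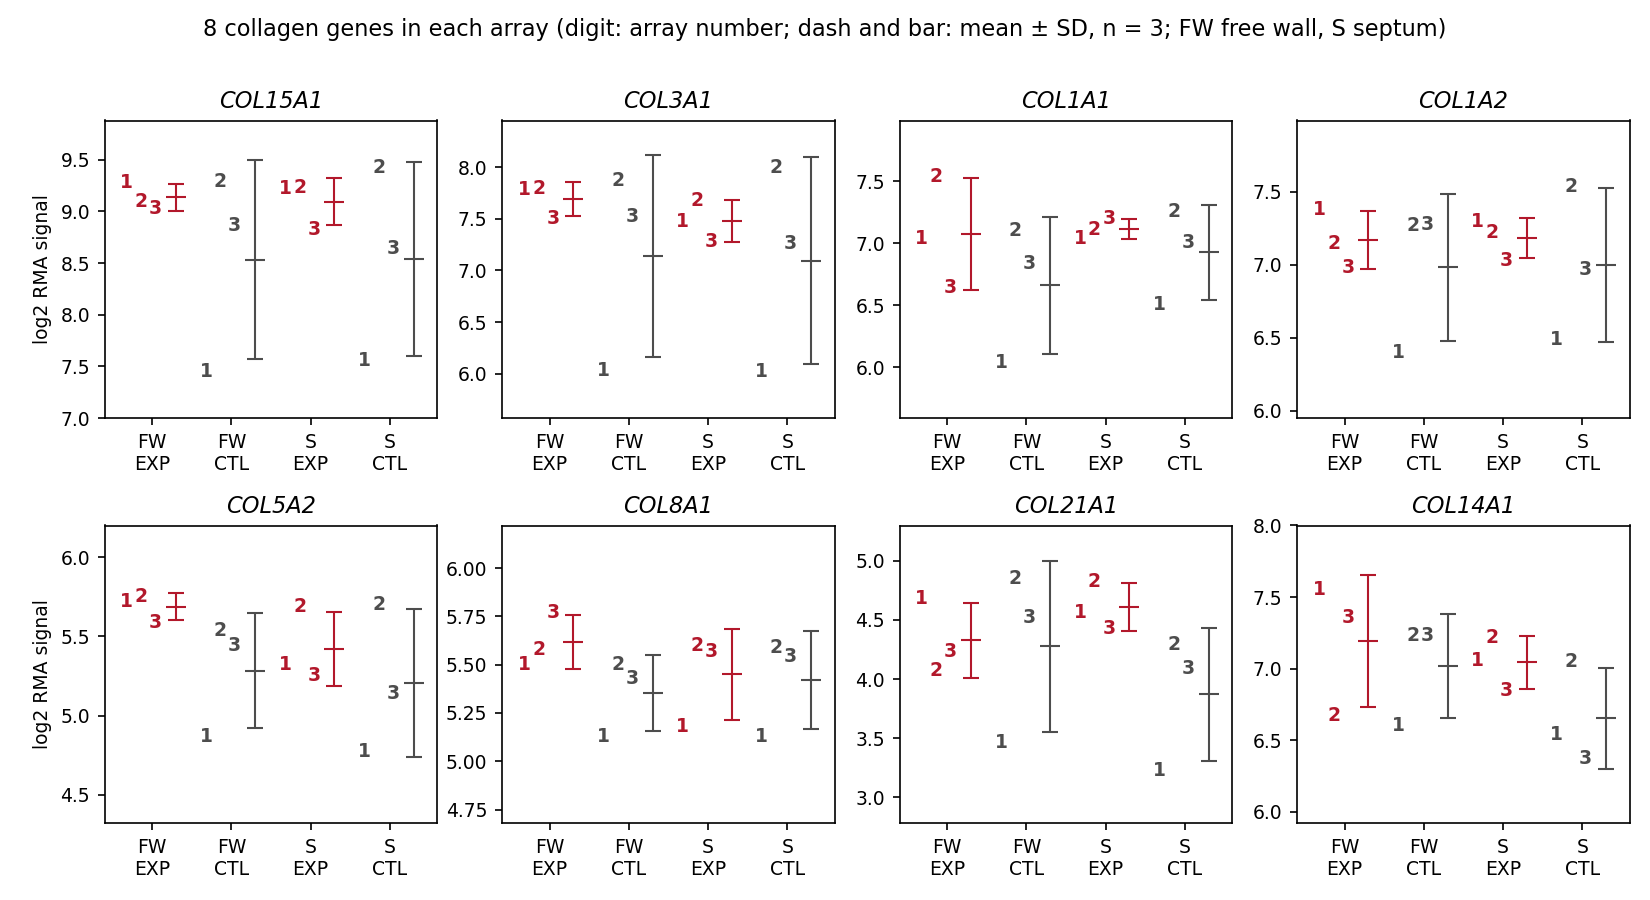
Log2 RMA signal of 8 collagen genes by group, with each array drawn as its number and the mean ± SD (n = 3) beside it. Sham (CTL) array 1 is the lowest of its group in all but COL14A1 of septum, where array 3 is lowest at 6.37.

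The sham arrays numbered 1 were singled out because COL3A1 is low in them. The shares below count COL3A1 itself, and so describe that choice rather than test it. In 7 of 27 tested collagen genes (25.9%) both sham arrays numbered 1 lay below all 10 other arrays, against 3.56% of all tested probe sets. These were COL1A1, COL1A2, COL3A1, COL5A2, COL8A1, COL15A1 and COL21A1. The gap to the next array was 1.23 for COL3A1, 1.08 for COL15A1, 0.61 for COL21A1, 0.48 for COL1A2, 0.27 for COL5A2, 0.13 for COL1A1 and 0.05 for COL8A1. In 6 of 27 (22.2%) these arrays lay over 0.5 below the mean of sham arrays 2 and 3 in both regions, against 1.72% of all. None of the 27 lay over 0.5 above it in both regions, against 0.948% of all. COL3A1 differed from that mean by -1.665 in free wall and -1.61 in septum, and COL15A1 by -1.625 and -1.475.

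The brightest type IV and type VI genes stood much nearer to the other sham arrays. COL4A1 differed from the mean of sham arrays 2 and 3 by 0.045 in free wall and 0.03 in septum, and COL6A3 by -0.19 and -0.135. COL14A1 differed by -0.63 in free wall and -0.17 in septum. Genes of other lists were also lowest in both sham arrays numbered 1. Among fibril-associated genes they were 4 of 12 (BGN, LUM, FMOD and POSTN), among folding genes 2 of 13 (SERPINH1 and COLGALT2) and among inducers of collagen genes 1 of 7 (TGFB3). Among cell type markers they were 2 of 4 for activated fibroblasts (POSTN and FAP), 1 of 6 for fibroblasts (LUM), 2 of 5 for vascular endothelium (KDR and TEK), 2 of 5 for endocardium and lymphatics (CDH11 and CCL21), 1 of 7 for smooth muscle and pericytes (RGS5) and 1 of 7 for cardiomyocytes (ACTC1). The cardiac actin gene ACTC1 read 11.4 in the free wall one and 11.45 in the septum one, against 11.82 to 12.31 on the other 10 arrays.

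As a mean over each list, relative to the genes' means over 12 arrays, activated fibroblast markers stood at -0.53 and -0.79 in the free wall and septum sham arrays numbered 1. The other 4 sham arrays lay between -0.27 and 0.25, and the 6 paced arrays between -0.11 and 0.48. Fibroblast markers stood at -0.28 and -0.27 in those arrays, and at -0.37 in septum sham array 3. Fibril-associated genes stood at -0.45 and -0.32, vascular endothelial markers at -0.39 and -0.23, and smooth muscle and pericyte markers at -0.26 and -0.33. Endothelial markers also stood at -0.27 in free wall paced array 2. In the sham arrays numbered 1, macrophage markers stood above 0, at 0.26 and 0.28, as did adipocyte markers, at 0.11 and 0.08. COMP, an activated fibroblast marker, read 4.85 and 4.89 there, against its mean over 12 arrays of 4.75. Cardiomyocyte markers stood at -0.12, the lowest of the 12 arrays, and -0.05, and reached 0.10 on the highest array. In the free wall one ACTC1 read 11.4, against its mean over 12 arrays of 11.99. MYL3 and MYBPC3 read 12.02 and 10.43, against means of 12.14 and 10.62. MYH7, MYL2, ACTN2 and RYR2 read 12.52, 12.45, 11.72 and 11.39, against means of 12.52, 12.45, 11.74 and 11.32. The part of these cells in the collagen signals was not tested.

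**Figure D3:**
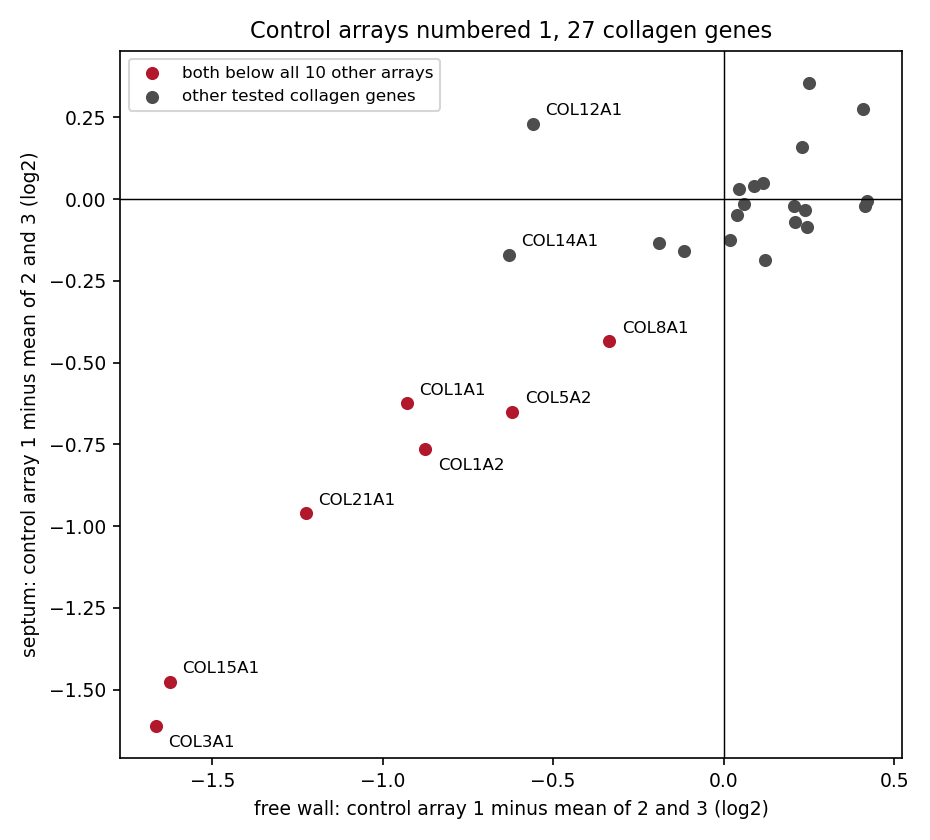
Each point is 1 of 27 tested collagen genes, with the log2 difference of sham array 1 from the mean of sham arrays 2 and 3 in free wall (x axis) and septum (y axis). The 7 genes in red are below all 10 other arrays in both, and COL3A1 and COL15A1 lie farthest down.

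The first comparison asked how the free wall, which lies away from the lead, differed between paced and sham pigs. By limma, 0 of 27 collagen genes passed an adjusted p under 0.05 and 0 had an unadjusted p under 0.05. Over all tested probe sets 0.00484% passed and 4.56% had an unadjusted p under 0.05. The paced mean was above the sham mean in 17 collagen genes and below it in 10, where 49.9% of all tested probe sets were above. Their median log2 difference was 0.08 (0 over all probe sets). Among fibrillar genes 7 of 10 were above, with a median of 0.14, among FACIT genes 4 of 5, with a median of 0.11, and among type IV genes 1 of 4, with a median of -0.05. Without both sham arrays numbered 1, 7 of 10 fibrillar genes were above, with a median of 0.095. FACIT genes were then 2 above and 3 below, with a median of -0.04, and type IV genes 2 and 2, with a median of -0.0017. Without free wall paced array 2 the median over the 27 genes was -0.04.

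COL15A1 and COL3A1, both low in sham array 1, had the largest differences. COL15A1 differed by 0.60 (SE 0.47, adjusted p = 0.998 in limma), or 1.52-fold, COL3A1 by 0.55 (SE 0.49), COL1A1 by 0.41 (SE 0.29), COL5A2 by 0.40 (SE 0.23) and COL1A2 by 0.19 (SE 0.27). With both sham arrays numbered 1 left out, COL15A1 differed by 0.06, COL3A1 by -0.005, COL1A1 by 0.10, COL5A2 by 0.20 and COL1A2 by -0.105. The 95% interval of COL3A1 with all arrays ran from -0.52 to 1.62, and so covers both no difference and more than a doubling.

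COL5A2 was the 1 collagen gene with every paced free wall array above every sham one, and COL4A1 the 1 with every paced array below. In all tested probe sets 3.63% were wholly above and 4.52% wholly below. COL4A1, a chain of the main type IV heterotrimer, read 6.15, 6.19 and 6.15 in paced free wall, against 6.25, 6.2 and 6.21 in sham free wall, a difference of -0.06 (SE 0.09).

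The smallest p-values in the free wall belonged to dim genes of other classes. COL12A1, a FACIT chain that links type I fibrils to their surroundings, read 3.89, 3.76 and 3.93 in paced free wall, against 3.76, 4.30 and 4.34 in sham free wall. It differed by -0.27 (SE 0.15, unadjusted p = 0.101 in limma). Without both sham arrays numbered 1 it differed by -0.46, with an unadjusted p of 0.00375 and an adjusted p of 0.999 in limma. That was the 1 collagen gene in 27 with an unadjusted p under 0.05 there, against 3.64% of all tested probe sets.

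COL4A6, a type IV chain beside COL4A5 on the X chromosome, read 3.48, 4.36 and 3.37 in paced free wall, against 3.57, 2.92 and 3.40 in sham free wall. Its difference of 0.44 (SE 0.25) was 0.13 without paced array 2. COL5A1, the main chain of type V collagen, read 3.86, 4.15 and 3.76 in paced free wall, against 4.49, 4.0 and 4.15 in sham free wall. It differed by -0.29 (SE 0.18), by -0.15 without both sham arrays numbered 1 and by -0.40 without paced array 2. The groups of both genes overlapped.

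All 3 short-chain genes were above 0 in free wall. COL8A1, a chain of networks in vessel walls, read 5.5, 5.58 and 5.77 in paced free wall, against 5.13, 5.5 and 5.43 in sham free wall. It differed by 0.26 (SE 0.17), and by 0.15 without both sham arrays numbered 1. COL6A3, a chain of the beaded microfibrils around myocytes, read 6.70, 6.35 and 6.36 in paced free wall, against 6.45, 6.76 and 6.52 in sham free wall, a difference of -0.11 (SE 0.15). Its other probe sets had paced means slightly above the sham means in free wall.

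The same question was asked of the septum, on whose right side the lead was fixed. By limma, 0 of 27 collagen genes passed an adjusted p under 0.05, against 0.00968% of all tested probe sets, and 0 had an unadjusted p under 0.05, against 4.65%. The paced mean was above the sham mean in 10 genes and below it in 17, where 49.1% of all tested probe sets were above, with a median of -0.05 (-0.0033 over all probe sets). Fibrillar genes were split 5 and 5. Without both sham arrays numbered 1, COL5A1 was the 1 fibrillar gene above, at 0.04, 8 were below and COL5A2 was at 0, with a median of -0.11. In that setting 0 of 27 collagen genes had an unadjusted p under 0.05, against 3.26% of all tested probe sets.

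COL21A1, a FACIT chain found in vessel walls, had the largest difference. It read 4.56, 4.83 and 4.43 in paced septum, against 3.23, 4.29 and 4.09 in sham septum, so that all paced arrays lay above all sham ones. In all tested probe sets 5.76% were wholly above, and 0 collagen genes were wholly below, against 4.78% of all. The difference was 0.74 (SE 0.35, unadjusted p = 0.0556, adjusted p = 0.992 in limma), and 0.42 (SE 0.21) without both sham arrays numbered 1. In free wall it read 4.68, 4.07 and 4.23 in paced pigs, against 3.46, 4.85 and 4.52 in sham pigs, with sham arrays on both sides of the paced ones.

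COL14A1, another FACIT chain that binds fibrils through decorin, read 7.06, 7.22 and 6.85 in paced septum, against 6.54, 7.05 and 6.37 in sham septum. It differed by 0.39 (SE 0.26), and by 0.33 without both sham arrays numbered 1. In free wall it read 7.55, 6.67 and 7.36 in paced pigs, against 6.60, 7.23 and 7.23 in sham pigs. That free wall difference of 0.17 (SE 0.26) was 0.435 without paced array 2 and -0.04 without both sham arrays numbered 1.

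The lowest p-values below 0 in the septum were those of COL5A3 and COL17A1. COL5A3, the minor chain of type V collagen, read 4.32, 4.23 and 4.81 in paced septum, against 4.77, 4.82 and 4.75 in sham septum, a difference of -0.33 (SE 0.18). COL17A1, a membrane collagen known from hemidesmosomes of skin, read 4.01, 4.11 and 4.24 in paced septum, against 4.30, 4.24 and 4.46 in sham septum, a difference of -0.21 (SE 0.14). Neither difference passed the test, and both groups touched or overlapped.

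The chains of types I and III differed by less than 1 SE in septum. COL3A1 differed by 0.38 (SE 0.49), COL1A1 by 0.19 (SE 0.29) and COL1A2 by 0.18 (SE 0.27). Once both sham arrays numbered 1 were left out they differed by -0.15, -0.02 and -0.07, in the same order. COL15A1 differed by 0.55 (SE 0.47), and by 0.06 without these arrays.

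**Figure D4:**
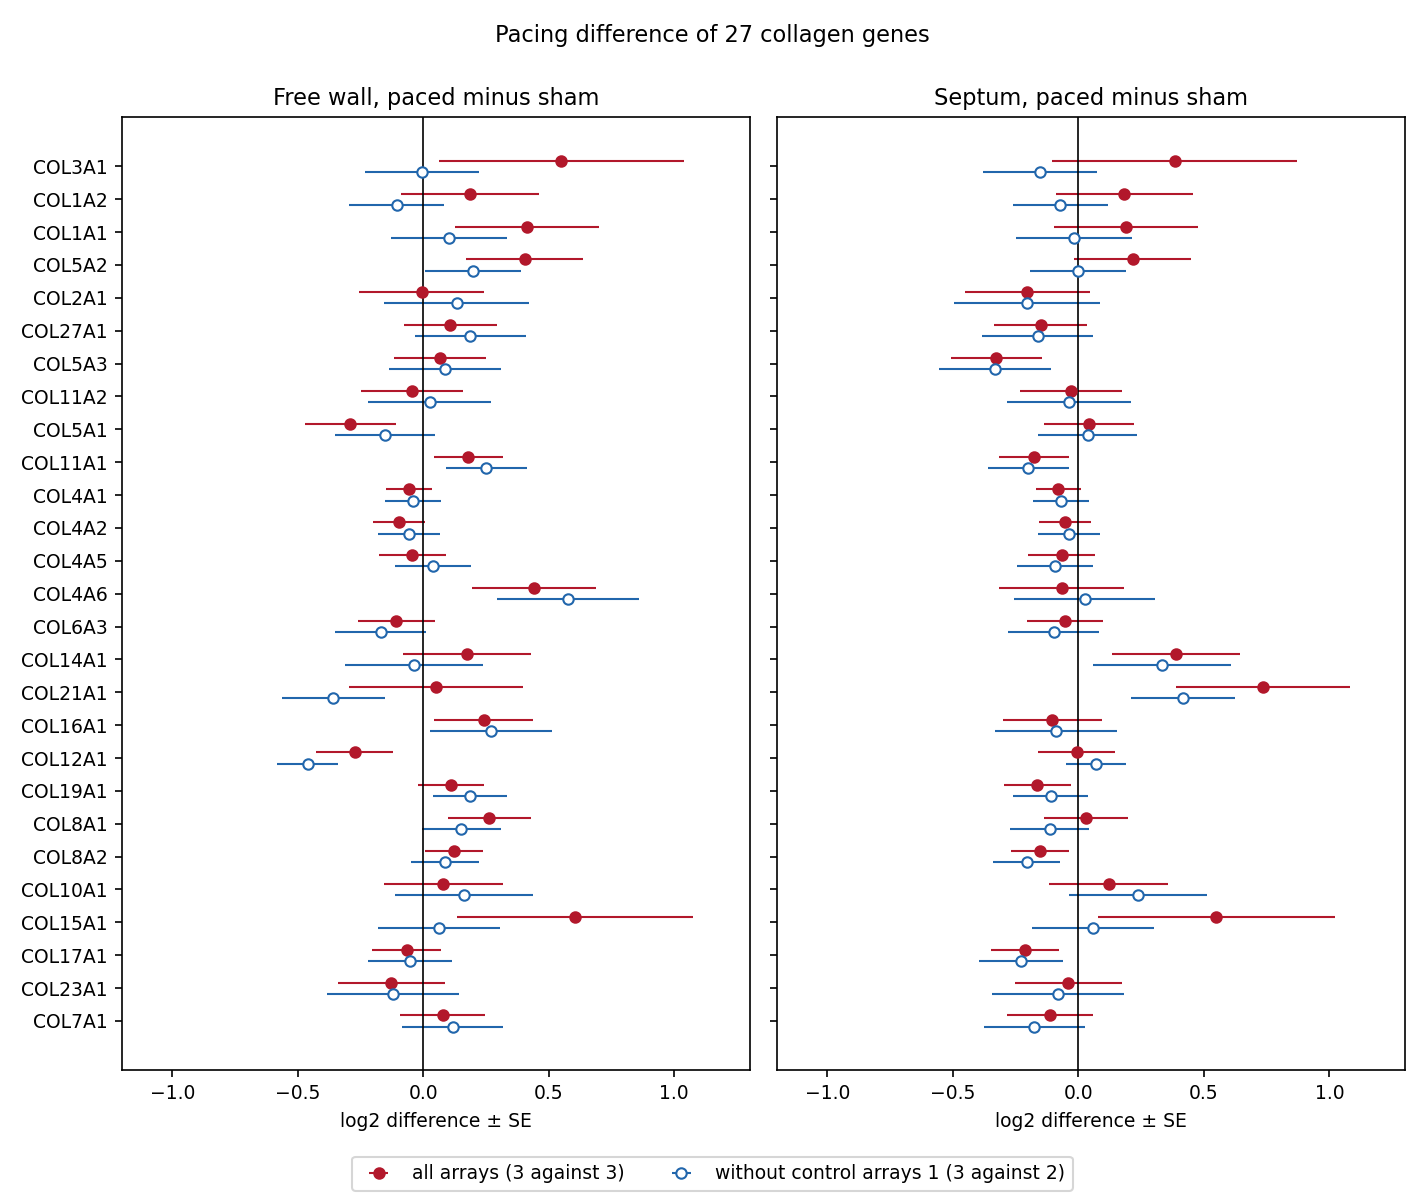
Log2 difference ± SE of paced minus sham for 27 tested collagen genes, in free wall (left) and septum (right), with all arrays (filled) and without both sham arrays numbered 1 (open). COL3A1 and COL15A1 shift most between the settings, from 0.55 and 0.60 to -0.005 and 0.06 in free wall.

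With both regions averaged first over arrays that share treatment and number, 3 paced values stood against 3 sham values. Same-numbered paced arrays did not deviate together over all probe sets, so which paced arrays were averaged together rests on the number alone. By limma, 0 of 27 collagen genes passed an adjusted p under 0.05, against 0.00484% of all tested probe sets. No collagen gene had an unadjusted p under 0.05, against 5.55% of all. The paced mean was above in 12 genes and below in 15, where 48.9% of all tested probe sets were above, with a median of -0.02. COL14A1 had the smallest p, with a difference of 0.28 (SE 0.16, unadjusted p = 0.118, adjusted p = 0.945 in limma). COL15A1 differed by 0.58 (SE 0.40), COL3A1 by 0.47 (SE 0.42), COL5A2 by 0.31 (SE 0.19) and COL1A1 by 0.30 (SE 0.22). After leaving out both sham arrays numbered 1 these came to 0.06, -0.08, 0.10 and 0.04. COL4A1 was the 1 gene whose averaged values did not overlap, lower in paced pigs by -0.07 (SE 0.08), where 5.52% of all tested probe sets were wholly lower. None was wholly higher, against 4.97% of all.

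Whether the paced minus sham difference depended on the region was tested as the septum difference minus the free wall difference. By limma, 0 of 27 collagen genes and 0% of all tested probe sets passed an adjusted p under 0.05. No collagen gene had an unadjusted p under 0.05 either, against 2.75% of all. The value was above 0 in 9 genes and below in 18, where 51.3% of all tested probe sets were above, with a median of -0.15 (0.01 over all probe sets). COL11A1, a minor fibrillar chain, had the smallest p, at -0.36 (SE 0.19, unadjusted p = 0.0926, adjusted p = 0.999 in limma). It read 3.65, 3.76 and 4.05 in paced septum, against 3.95, 3.96 and 4.08 in sham septum. In free wall it read 3.93, 4.19 and 3.82 in paced pigs, against 3.94, 3.69 and 3.77 in sham pigs.

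Among the others, COL8A2, the partner chain of COL8A1, came to -0.28 (SE 0.16). It read 4.85, 5.01 and 5.06 in paced septum, against 5.02, 5.19 and 5.17 in sham septum. In free wall it read 4.99, 5.27 and 4.98 in paced pigs, against 4.88, 4.99 and 5.0 in sham pigs. COL21A1 came to 0.69 (SE 0.49) and COL5A1 to 0.33 (SE 0.25), which was 0.19 without both sham arrays numbered 1. Without both sham arrays numbered 1, COL21A1 came to 0.775 (unadjusted p = 0.0249 in limma) and COL12A1 to 0.53 (unadjusted p = 0.0119 in limma). Neither passed the adjusted test, and 2.41% of all tested probe sets had an unadjusted p under 0.05 in that setting.

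The regions themselves were compared within each treatment. By limma, 0 of 27 collagen genes passed an adjusted p under 0.05 in paced pigs and 0 of 27 in sham pigs, and 0% of all tested probe sets passed in either. An unadjusted p under 0.05 was found for 2 of 27 in paced pigs, against 6.73% of all, and for 1 of 27 in sham pigs, against 3.67%. The clearest values were those of COL4A1 and COL4A2, which encode the 2 chains of the common type IV heterotrimer and neighbour each other on chromosome 11 in the RefSeq annotation of Sscrofa11.1. COL4A1 read 6.47, 6.42 and 6.37 in paced septum, against 6.15, 6.19 and 6.15 in paced free wall. In sham pigs it read 6.52, 6.54 and 6.44 in septum, against 6.25, 6.2 and 6.21 in free wall. Every septum array lay above every free wall array, whatever the treatment.

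The COL4A1 difference was 0.26 (SE 0.09, unadjusted p = 0.0157, adjusted p = 0.631 in limma) in paced pigs. In sham pigs it was 0.28 (SE 0.09, unadjusted p = 0.00977, adjusted p = 0.997 in limma), and 0.285 without both sham arrays numbered 1. COL4A2 read 5.57, 5.58 and 5.6 in paced septum, against 5.33, 5.44 and 5.30 in paced free wall. It read 5.67, 5.73 and 5.51 in sham septum, against 5.53, 5.48 and 5.35 in sham free wall. Its difference was 0.23 (SE 0.10, unadjusted p = 0.0487 in limma) in paced pigs and 0.18 (SE 0.10, unadjusted p = 0.101 in limma) in sham pigs. In paced pigs the COL4A2 groups did not overlap, while in sham pigs septum array 3 lay within the free wall range.

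Over both treatments together, a comparison added after these values were seen, COL4A1 averaged 6.46 in septum and 6.19 in free wall (n = 6 each). The difference was 0.27 (SE 0.06), or 1.20-fold, with an unadjusted p of 0.00136 and an adjusted p of 0.305 in limma. COL4A2 averaged 5.61 in septum and 5.405 in free wall, a difference of 0.205 (SE 0.07, unadjusted p = 0.016, adjusted p = 0.525 in limma). With the array number within treatment as a block, the unadjusted p of COL4A1 was 0.00409 (adjusted p = 0.412 in limma). That of COL4A2 was 0.0183 (adjusted p = 0.493 in limma). COL4A5 and COL4A6, the other tested type IV chains, differed by -0.01 and -0.03. In this comparison 0 of 27 collagen genes passed an adjusted p under 0.05, against 0.00968% of all tested probe sets, and 2 had an unadjusted p under 0.05, against 7.83%. COL4A1 was the 1 collagen gene whose regions did not overlap, where 0.426% of all tested probe sets were wholly higher in septum and 0.242% wholly lower. By mean, 15 collagen genes were higher in septum and 12 lower, where 53.3% of all tested probe sets were higher.

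Markers of vascular endothelium, cells that make type IV collagen, were above 0 in 5 of 5 genes in paced pigs, with a median of 0.18, and in 3 of 5 in sham pigs, with a median of 0.06. Cardiomyocyte markers were above 0 in 5 of 7 genes in paced pigs and 7 of 7 in sham pigs, with medians of 0.08 and 0.09. Macrophage markers were above 0 in 6 of 6 genes in paced pigs and 1 of 6 in sham pigs, with medians of 0.25 and -0.21. Fibroblast markers were above 0 in 1 of 6 genes in each treatment, with medians of -0.24 in paced pigs and -0.28 in sham pigs. The part of these cells in the type IV difference was not tested. As a list mean the endothelial markers stood between -0.03 and 0.28 in paced septum, against -0.27 and 0.16 in paced free wall. In sham pigs they stood between -0.23 and 0.19 in septum, against -0.39 and 0.14 in free wall.

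**Figure D5:**
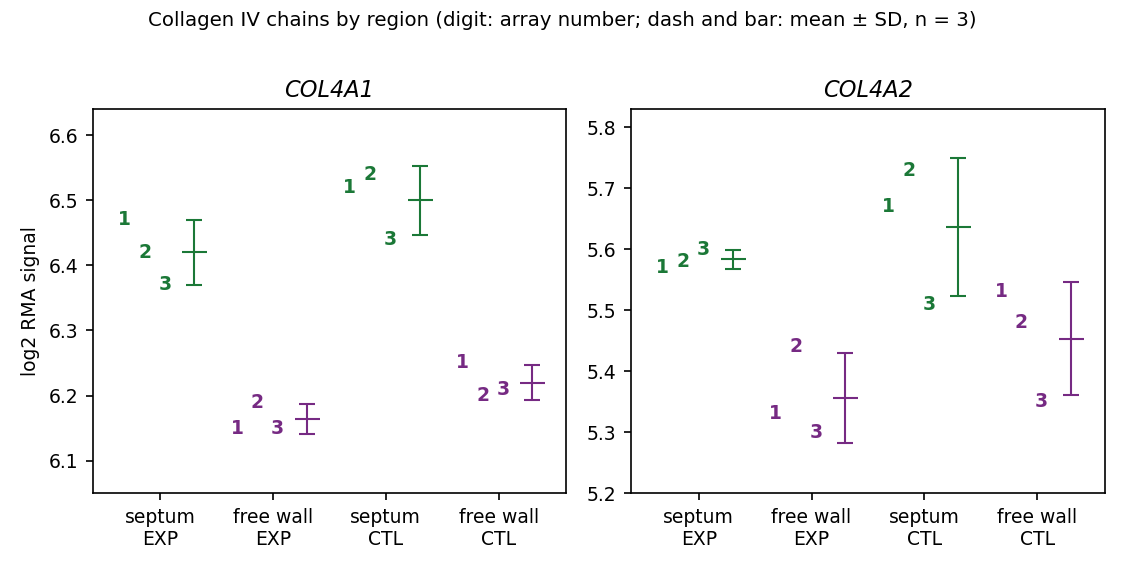
Log2 RMA signal of COL4A1 (left) and COL4A2 (right) by region and treatment, with each array drawn as its number and the mean ± SD (n = 3) beside it. All 6 septum arrays of COL4A1 lie above all 6 free wall arrays, while COL4A2 in sham pigs overlaps.

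Over all classes, the split of collagen genes between regions was counted in each treatment. Of the 27 collagen genes, 8 were higher and 19 lower in paced septum than in paced free wall, where 51.4% of all tested probe sets were higher, with a median of -0.04, which was 0.03 without free wall paced array 2. In sham pigs 17 were higher and 9 lower, where 52.3% of all were higher, with a median of 0.07, and COL4A5 was at 0. In sham septum COL4A1, COL5A3, COL8A2 and COL11A1 were wholly higher than in sham free wall, against 7.34% of all tested probe sets, and COL5A1 wholly lower, against 5.77%. In paced septum COL4A1 and COL4A2 were wholly higher, against 6.44% of all, and 0 wholly lower, against 3.47%.

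COL5A1 read 3.85, 3.94 and 3.8 in sham septum, against 4.49, 4.0 and 4.15 in sham free wall. It differed by -0.35 (SE 0.18), and by -0.205 without both sham arrays numbered 1. COL12A1 read 3.97, 3.76 and 3.72 in sham septum, against 3.76, 4.30 and 4.34 in sham free wall. It differed by -0.32 (SE 0.15), and by -0.58 (unadjusted p = 0.00153, adjusted p = 0.999 in limma) without both sham arrays numbered 1. In paced septum COL12A1 read 3.89, 3.84 and 3.70 and differed from paced free wall by -0.05, and COL5A1 read 3.55, 3.97 and 4.20 and differed by -0.02. The lowest p-values below 0 in paced pigs were those of COL11A1, at -0.16 (SE 0.14), and COL4A6, at -0.29 (SE 0.25), which was 0.025 without free wall paced array 2. COL4A6 read 3.56, 3.49 and 3.30 in paced septum, against 3.70, 3.57 and 3.28 in sham septum. COL7A1 lay between 3.53 and 4.23 over the 12 arrays with no group apart.

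Genes that build, cross-link, decorate and sense collagen were counted in the same fit, and by limma 0 passed an adjusted p under 0.05 in either pacing comparison. Of 13 tested genes that fold and modify collagen in the endoplasmic reticulum, 8 were above 0 and 5 below in free wall, with a median of 0.10, which was 0.02 without both sham arrays numbered 1. In septum 9 were above and 4 below, with a median of 0.03. PLOD2, a lysyl hydroxylase, differed by 0.33 (SE 0.22) in free wall and 0.29 (SE 0.22) in septum. PPIB, a prolyl isomerase, differed by -0.22 (SE 0.11) in free wall. Every paced array of PPIB lay below every sham one, as in 4.52% of all tested probe sets. In septum PPIB also lay below 0, from -0.13 to -0.01 over the alternative settings described at the end. P3H2, a prolyl hydroxylase, differed by 0.27 (SE 0.18) in septum. In free wall P3H2 had no steady direction, from -0.23 to 0.19 with single arrays left out.

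Of 10 tested genes of collagen maturation and cross-linking, 7 were above 0 in free wall, with a median of 0.08, and 5 in septum, with a median of -0.05. LOX, the lysyl oxidase that cross-links fibrils, averaged 6.23 in paced free wall and 6.89 in sham free wall. It differed by -0.65 (SE 0.26, unadjusted p = 0.0265, adjusted p = 0.998 in limma). Every paced array lay below every sham one, as in 4.52% of all tested probe sets. In septum LOX differed by -0.16 (SE 0.26), and by 0.09 without both sham arrays numbered 1. LOXL3, a related oxidase, differed by -0.35 (SE 0.12, unadjusted p = 0.0121, adjusted p = 0.992 in limma) in septum. In free wall LOXL3 went the other way, from 0.10 to 0.23 with single arrays left out. PCOLCE2, an enhancer of procollagen cleavage, differed by -0.53 (SE 0.28) in each region.

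Of 12 fibril-associated genes, 10 were above 0 in free wall, with a median of 0.06, and 9 in septum, with a median of 0.175. Without both sham arrays numbered 1, 5 of 12 were above in free wall, with a median of -0.08, and 9 in septum, with a median of 0.11. LUM, a small proteoglycan that spaces fibrils, read 11.19, 10.98 and 11.59 in paced free wall, against 9.84, 10.98 and 10.84 in sham free wall. In septum it read 11.18, 10.85 and 11.19 in paced pigs, against 9.77, 10.85 and 10.20 in sham pigs. The lowest paced value equalled the highest sham value in each region. LUM differed by 0.70 (SE 0.32, adjusted p = 0.998 in limma) in free wall and 0.80 (SE 0.32, adjusted p = 0.992 in limma) in septum, and by 0.34 and 0.55 without both sham arrays numbered 1. BGN, a related proteoglycan, differed by 0.16 in free wall and 0.32 in septum (SE 0.24 each), and by -0.03 and 0.10 without those arrays.

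Of 8 collagen receptors, 4 were above 0 in free wall and 3 in septum, and 3 and 5 without both sham arrays numbered 1. ITGA11, the integrin chain by which fibroblasts hold type I collagen, differed by 0.06 (SE 0.18) in free wall and 0.39 (SE 0.18) in septum. Of 7 inducers of collagen genes, 4 were above 0 in free wall and 5 in septum, with medians of 0.05 and 0.13. Without both sham arrays numbered 1, 2 of 7 were above in each region, with medians of -0.17 and -0.01. TGFB1, the best known of them, differed by 0.06 in free wall and 0.25 in septum (SE 0.20 each), and by -0.17 and 0.19 without those arrays. AGT, the precursor of angiotensin, averaged 8.11 in paced free wall and 8.85 in sham free wall, a difference of -0.74 (SE 0.24, unadjusted p = 0.0094, adjusted p = 0.998 in limma). In septum it averaged 8.11 in paced pigs and 8.76 in sham pigs, a difference of -0.65 (SE 0.24, unadjusted p = 0.0184, adjusted p = 0.992 in limma). Every paced array of AGT lay below every sham array in each region. Of all tested probe sets, 4.52% were wholly lower in free wall and 4.78% in septum.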

How the data were processed

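Total RNA was extracted with Trizol, biotin-labelled and hybridised to 12 arrays, per the labels. The authors deposited log2 RMA signals, made in Affymetrix Expression Console 1.4, per the submitters' processing notes. RMA corrects background, normalises quantiles and summarises probes, which reduces whole-array differences. Some remained, as array medians lay between 4.305 and 4.45. The genome build, not given in the sources used here, was not needed. GEO's platform table gave 1 symbol to 13323 probe sets, several to 357 and none to 13878. The symbol COL4A5 stands under more than 1 gene ID on its probe set, which was kept. Coordinates were not used, and the RefSeq table of Sscrofa11.1 served for names and neighbours.

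Groups came from the labels. Probe sets in the lowest 25% by mean (under 2.998) were left out, and 20668 were tested with limma 3.58.1 (R 4.3.3), fitting 1 mean for each group to all 12 arrays (8 residual and 3.681 prior degrees of freedom). For averaged regions there were 4 residual and 3.82 prior degrees of freedom. All tests were two-sided, with Benjamini-Hochberg adjustment over all tested probe sets. Intervals are 95%. The number of arrays limits the precision. The code was tested on simulated data. Figures used matplotlib 3.10.9.

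Collagen members, classes and other lists were chosen with earlier results of these data known. In the same way, the sham arrays numbered 1 were left out because COL3A1 was known to be low in them. Values in every array are given for COL1A1, COL1A2, COL3A1, the brightest gene of each class and, per comparison, the 2 genes in each direction with the smallest p. From other lists up to 3 genes with the smallest p in the pacing comparisons were named. LUM's values by array, and the marker genes lowest in both sham arrays numbered 1, are shown beyond that rule. The septum comparison over both treatments was added after the values were seen.

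Same-numbered arrays of the 2 regions deviated together in sham pigs (correlations 0.318, 0.252 and 0.245 over all probe sets) but not in paced pigs (0.089, -0.173 and -0.181). Over the collagen genes the correlations were 0.901, 0.809 and 0.086 in sham pigs, and 0.604, -0.548 and -0.147 in paced pigs. These correlations were not tested, and the labels tie no array to an animal. Whether equal numbers mark the same pig is therefore not known. The averaged comparison still merges paced arrays by number, which leaves its mean difference as it is but can change its spread. For the same number in paced and sham pigs the correlations over all probe sets ran from -0.199 to 0.217.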

Additional observations from a re-analysis of the deposited data

How the results depend on the processing

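No collagen gene was called in any of 7 comparisons under any of 139 alternatives: no filter or a stricter one, array weights, median centring, trended and robust variances, only the compared arrays, the mean of a gene's probe sets, the number as a block, and arrays left out. With the replicate block 0 collagen genes were called, as without it, and it changed the call of no other gene named here. In sham pigs same-numbered arrays deviated together over all probe sets. There the blocked unadjusted p of COL4A1 between regions was 0.0308 and the adjusted p 0.988 in limma. Of 5742 alternatives for named genes 10 reversed a direction, where a difference within 1 SE of 0 was given none. Without both sham arrays numbered 1, or without free wall sham array 1 alone, COL3A1 in free wall came to -0.005. With regions averaged and both sham arrays numbered 1 left out it came to -0.0792. Without free wall paced array 2 and both sham arrays numbered 1, a setting chosen after seeing the data, the free wall median over 27 genes was -0.055, COL1A1 was -0.13, COL3A1 -0.055, COL8A2 -0.01 and PDGFA -0.02. With regions averaged, where both arrays of a treatment and number were left out together, COL3A1 ran from -0.0792 to 0.876. Leaving out 1 array at a time, COL3A1 ran from -0.005 to 0.915 in free wall. PRELP in septum ran from -0.03 (without paced array 1) to 0.39, and COL4A6 between regions of paced pigs from -0.47 to 0.025 (without free wall paced array 2). The median region difference of collagen genes in paced pigs ran from -0.145 to 0.03 (without free wall paced array 2). The median difference of pacing effects ran from -0.22 to -0.0133 (without free wall paced array 2), and the COL4A1 region difference over both treatments from 0.26 to 0.28. The cause was not tested. With 3 arrays per group, differences of the size of 1 SE cannot be told from none, and dim probe sets are the least certain.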

Other observations

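Genes with several probe sets allow a look at agreement between them. The second COL1A1 probe set read 5.69, 6.12 and 5.56 in paced free wall, against 5.26, 5.44 and 5.36 in sham free wall. Every paced array lay above every sham one, as in 3.63% of all tested probe sets, and so also above sham arrays 2 and 3 alone. The 2 probe sets differed in this, since on the brighter one paced array 3, at 6.64, lay below sham arrays 2 and 3, at 7.10 and 6.84. In septum the second probe set read 5.6, 5.83 and 5.68 in paced pigs, against 5.39, 5.83 and 5.79 in sham pigs. Its lowest array in each region was again sham array 1, at 5.26 and 5.39, but the distance to the other sham arrays was smaller than on the brighter probe set. The other 2 COL6A3 probe sets had means of 6.235 and 5.96, against 6.53 for the one used. In free wall the first of them read 6.55, 6.21 and 6.14 in paced pigs, against 6.36, 6.42 and 6.08 in sham pigs. The other read 6.22, 6.05 and 5.82 in paced pigs, against 5.71, 6.1 and 5.99 in sham pigs. On both, the paced mean lay slightly above the sham mean and the groups overlapped, while on the one used it lay below. The second COL8A1 probe set was dim, at a mean of 1.88.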
